A study of Mus musculus with 12 samples.

Results

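The machinery that brings secretory proteins into the endoplasmic reticulum (ER) and carries them on to the Golgi was compared between the livers of wild-type mice (WT) and of mice lacking A1cf (A1cf -/-, KO). Members were taken by gene symbol: subunits of the signal recognition particle, the translocon, signal peptidase, the oligosaccharyltransferase, the ER membrane protein complex (EMC), the COPII and COPI coats, cargo receptors, and tethering and fusion factors. Of 46882 gene names in the deposited table, 102 matched the symbol pattern and 97 of these had a mean of at least 5 counts per library. All 97 were among the 13706 genes abundant enough to be tested. The 5 below the count rule were Kdelr3 (mean 4.83 counts), Tmed6 (0.417), Srp54a (0.333), and Tmed11 and Trappc3l with no count. The members nearest above it were far higher, with Trappc2 at a mean of 104 counts, Sec61a2 at 113 and Tmed8 at 125.

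There were 6 libraries of each genotype, each made from the liver of a C57BL/6 mouse of 6 to 8 weeks, and the series' design text calls them biological replicates. Neither group had a treatment or a second allele in the labels, which do not say which part of A1cf was deleted or in which cells. The A1CF protein binds RNA, is made in liver and gut epithelium, and is known as a cofactor of APOBEC1 in editing of Apob mRNA. Libraries are named below by group and by the number in their titles.

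The liver makes most plasma proteins, and its hepatocytes are rich in rough ER. In the textbook pathway the signal recognition particle (SRP) binds a signal sequence as it leaves the ribosome and docks at the SRP receptor, and the SEC61 channel passes the chain into the ER, where signal peptidase trims it and the oligosaccharyltransferase adds N-glycans. COPII vesicles then leave ER exit sites with cargo picked by receptors such as LMAN1, tethers and SNARE proteins bring them to the Golgi, and COPI vesicles return escaped residents.

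Totals per library ran from 22129092 counts (KO 584) to 51082317 (KO 588). A1cf stood at 47.9 to 53.8 CPM (counts relative to the scaled library size) in the WT livers and 8.20 to 12.6 in those of KO, so every library matched its label. Hepatocyte markers were abundant in all 12 libraries, their 8 genes summing to 87118 to 110713 CPM in WT and 81695 to 102907 CPM in KO. Markers of some other liver cells leaned higher in KO: all 11 Kupffer cell, all 10 endothelial and all 11 stellate cell markers had higher fitted values in KO, none of them at 0 in every library. Their sums were 134 to 222 CPM in WT and 138 to 491 CPM in KO for Kupffer cells, 155 to 306 and 241 to 298 CPM for endothelial cells, and 213 to 366 and 333 to 478 CPM for stellate cells. Stab2, Lrat and Pdgfrb of these 32 passed the test. Of 5 tested cholangiocyte markers, 4 had lower fitted values in KO, and none was called by edgeR, DESeq2 or limma-voom or reached an unadjusted p under 0.05. In bulk liver, fewer cells of a type and less RNA per cell cannot be told apart. Of 7 markers of pancreatic acini, another secretory tissue, Cpa1, Prss2, Amy2a5 and Pnlip were at 0 in every library.

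The median of the members lay slightly lower in KO livers, close to that of genes of equal mean level from 4 to 8 log2 CPM. A larger share of the members fell. In edgeR's quasi-likelihood test, with p-values adjusted by Benjamini-Hochberg over all tested genes (edgeR adjusted p below), 11 of the 97 members fell and 0 rose. That is 11.3% of the members, where 3.82% of all tested genes changed in either direction, 2.09% fell and 1.72% rose. At an unadjusted p under 0.05, 22 members were lower and 2 (Emc1 and Emc9) higher. That is 24 of the 97 members, where 2903 of all 13706 tested genes reached it in either direction, a similar share. How the 2903 split by direction was not counted. DESeq2 and limma-voom each called 1 member, Emc9, higher. The falls were small: the 11 members stood at 67.6% to 86.3% of their WT level, and no member differed by more than 0.58 on the log2 scale in either direction. Fitted values were below 0 for 67 members and above 0 for 30, with a median log2 fold change of -0.07 against 0.01 over all tested genes. In 9 members, 9.28%, every KO library lay below every WT library, which held for 1.97% of all tested genes. No member had every KO library above every WT library, against 1.33% of all tested genes.

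**Figure D1:**
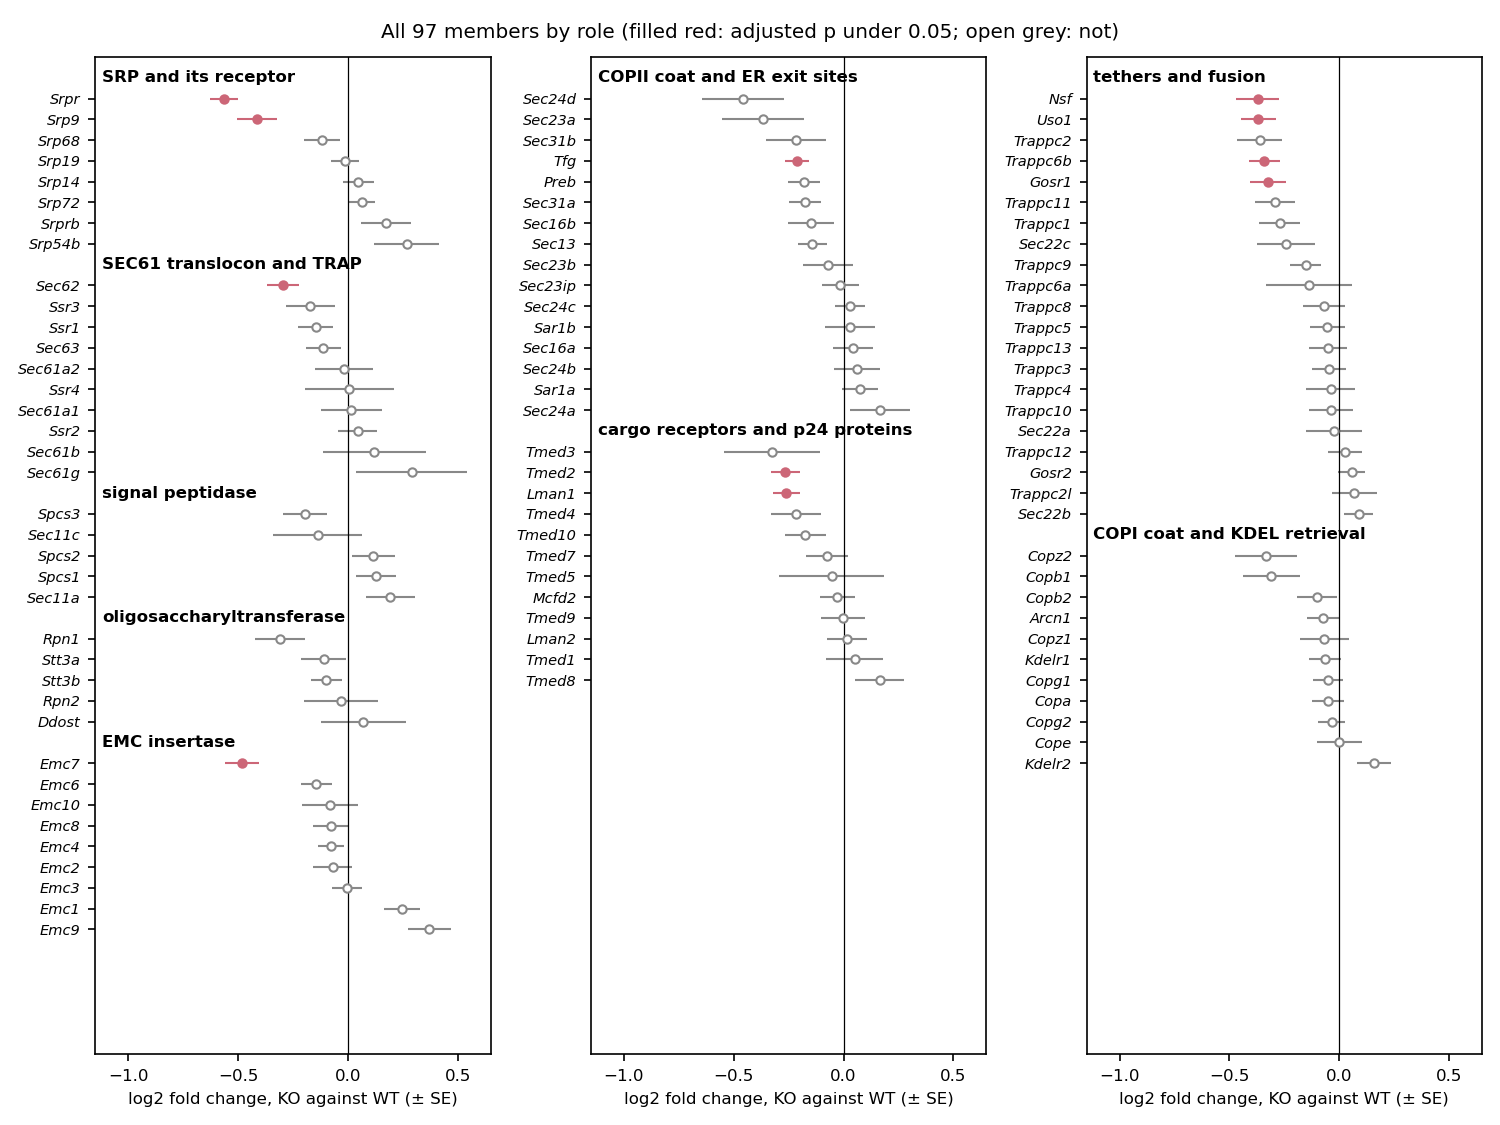
Log2 fold change (horizontal axis, KO against WT, bars ± SE, 6 libraries per group) of each of the 97 members, ordered within their roles. The 11 filled red points, all left of 0, passed an adjusted p of 0.05 in edgeR's quasi-likelihood test, and open grey points did not.

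These transcripts are abundant, and abundant genes in general leaned lower in KO, so the members were also read beside genes of equal mean level. The members' median level was 5.75 log2 CPM, against 3.59 over all tested genes. Among genes at 4 to 6 log2 CPM, 3.35% fell and the median fold change was -0.03 on the log2 scale, while 5 of the 43 members at that level fell and their median was -0.05. Among genes at 6 to 8 log2 CPM, 3.62% fell with a median of -0.07, while 5 of 41 members fell with a median of -0.08. At 2 to 4 log2 CPM 1 of 11 members fell, against 1.81% of genes there, and neither of the 2 members below that level did, against 0.696%. Weighted to the members' levels, 3.23% of genes fell, 1.00% rose and 59.2% had a fitted value below 0, against 69.1% of the members. No member lay above 8 log2 CPM, where 1.45% of genes fell. The medians of members and of other genes at the same level were close together from 4 to 8 log2 CPM, and the share of members that fell was the larger at each level from 2 to 8 log2 CPM.

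**Figure D2:**
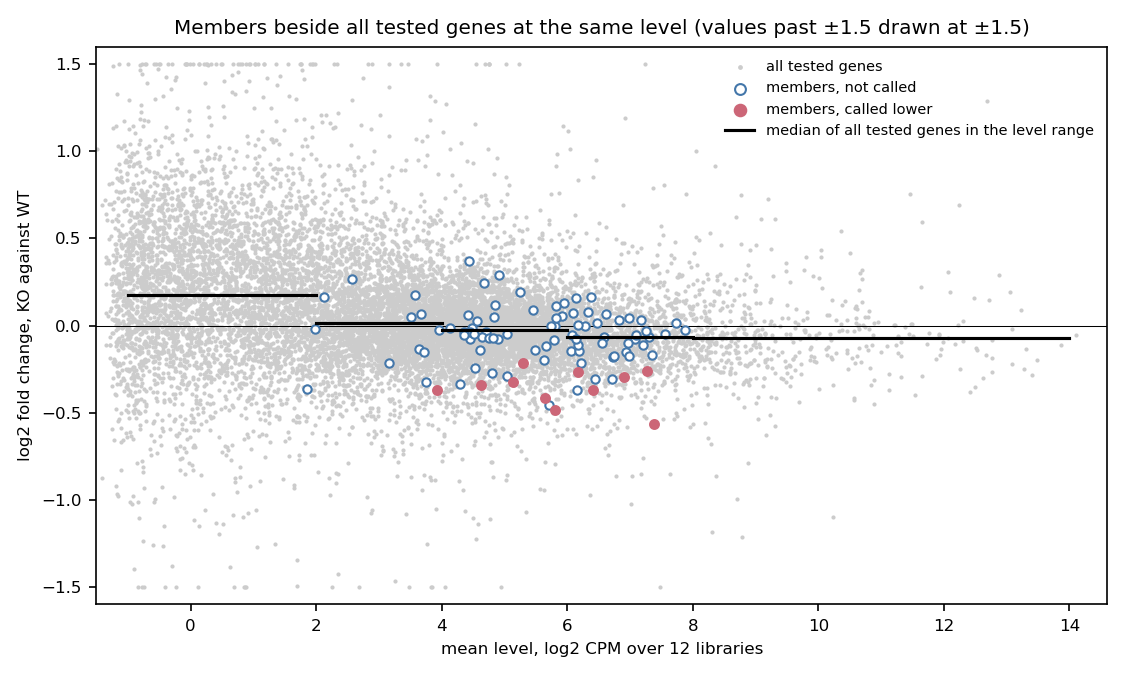
Log2 fold change (vertical axis, KO against WT) against mean level in log2 CPM over 12 libraries (horizontal axis). Grey dots are all 13706 tested genes, open blue circles members that did not pass the test and red circles the 11 members that fell; black bars give the median of all tested genes in each level range, which sinks from 0.17 below 2 log2 CPM to -0.07 above 6.

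Of the 97 members, Srpr had the largest fall. Srpr encodes the alpha subunit of the SRP receptor, the GTPase that docks the SRP at the ER membrane, and lies on chromosome 9 (mm10, 35200175 to 35247973). Its level was 190 CPM at the lowest, 197 at the median and 210 at the highest in WT, and 127, 134 and 139 CPM in KO. The groups did not overlap, and the gap between them was wider than the whole range of either. The level fell from 198.5 ± 8.24 to 134.2 ± 4.57 CPM (mean ± SD, n = 6 each, as for every ± below), a log2 fold change of -0.56 (SE 0.06, edgeR adjusted p = 0.00036; exact two-sided permutation p = 0.00216, the smallest that 6 against 6 can give). At 59.0 CPM per kb of exon in WT, Srpr had the highest level per length of the 8 SRP and receptor genes. Srprb, the membrane-anchored beta subunit of the same receptor, did not fall with it: its level was 11.1 ± 0.889 CPM in WT and 12.5 ± 2.10 in KO (log2 fold change 0.17, SE 0.11, edgeR adjusted p = 0.40). About 20.7% of Srprb's exonic bases are shared with another gene, which the counting may have left uncounted.

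Within the particle itself, only Srp9 of the 6 protein genes that are members passed the test. Srp9 (chromosome 1, 182124737 to 182132407) encodes a subunit of the Alu domain, which slows translation until docking. Its level ran over 53.3, 54.7 and 63.5 CPM in WT (lowest, median, highest) and 34.2, 43.7 and 49.1 CPM in KO. The groups were apart, with KO 574 and KO 780 the lowest of all. The log2 fold change was -0.42 (SE 0.09, edgeR adjusted p = 0.024), and 14.1% of its exonic bases are shared with another gene. Srp14, its partner in the same domain, stood at 28.0 ± 1.42 CPM in WT and 28.9 ± 2.62 in KO. Srp72, Srp68 and Srp19 had log2 fold changes of 0.06, -0.12 and -0.01 and did not pass the test. Srp54b, one of several near-identical copies of the subunit that reads the signal sequence, had a mean of 173 counts; reads shared among the copies make its value of 0.27 uncertain.

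At the channel, 1 of 10 members fell and none rose. Sec62, a membrane partner of SEC61 that serves post-translational import and ER turnover (chromosome 3, 30792875 to 30821263), lay at 119, 135 and 142 CPM in WT and 98.3, 107 and 117 CPM in KO. The lowest WT library, WT 601, was barely above the highest KO library, KO 602. Sec62, with 11.7% of its exonic bases shared, fell by 0.30 on the log2 scale (SE 0.07, edgeR adjusted p = 0.038), while its cofactor Sec63 had a value of -0.11 (edgeR adjusted p = 0.45). The pore subunit Sec61a1 stood at 88.6 ± 17.9 CPM in WT and 89.6 ± 14.8 in KO. The TRAP subunits Ssr3 and Ssr1, helpers of translocation, had values of -0.17 and -0.15 without passing. Ssr3, at 41.6 CPM per kb in WT, was the channel gene of highest level per length.

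The enzymes that act on the entering chain did not pass the test in either direction. Of 5 signal peptidase genes, 0 were called by edgeR, 0 reached an unadjusted p under 0.05, and 0 were called by DESeq2 or limma-voom; their median log2 fold change of 0.11 was the highest of the 9 roles. The catalytic Sec11a stood at 35.5 ± 3.52 CPM in WT and 40.6 ± 7.20 in KO, Spcs1 at 59.3 ± 5.31 and 64.8 ± 8.20 CPM, and Spcs3 at 52.7 ± 7.13 and 45.98 ± 5.42 CPM. Of 5 oligosaccharyltransferase genes, 0 were called by edgeR, DESeq2 or limma-voom, and Rpn1 alone reached an unadjusted p under 0.05. Rpn1, a structural subunit, lay at 98.9, 116 and 133 CPM in WT and 70.9, 93.5 and 121 CPM in KO; the groups overlapped (log2 fold change -0.31, SE 0.11, edgeR adjusted p = 0.14). Rpn1 did pass with the range of the library numbers in the model (log2 fold change -0.42, edgeR adjusted p = 0.027) and with the acute phase level described below in it (-0.37, edgeR adjusted p = 0.013). Rpn2 had a value of -0.03 and the catalytic Stt3b one of -0.10.

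Among the partners of these enzymes, listed with the earlier results of these data known, 1 of 15 fell and none rose. Tusc3, an oxidoreductase subunit of the STT3B form of the oligosaccharyltransferase, was the one: 5.50, 6.48 and 7.43 CPM in WT against 3.18, 3.58 and 4.15 CPM in KO. Every KO library was below every WT library, and the fall of 0.85 on the log2 scale (SE 0.11, edgeR adjusted p = 0.0013) was larger than that of any of the 97 members. Magt1, which can take the same place in that enzyme, had a value of -0.31 (edgeR adjusted p = 0.0504).

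In the EMC, an insertase for membrane proteins, Emc7 fell and the other 8 genes did not pass the test. Emc7 (chromosome 2, 112454997 to 112472162), a lumenal subunit, lay at 58.8, 65.6 and 73.0 CPM in WT and 41.3, 47.6 and 52.3 CPM in KO. No KO library reached the lowest WT library. The log2 fold change was -0.48 (SE 0.08, edgeR adjusted p = 0.0042). Emc9, a cytosolic subunit, leaned the other way with 15.9, 17.8 and 22.9 CPM in WT and 21.0, 24.5 and 26.4 CPM in KO. Its groups overlapped in part, and its value of 0.37 (SE 0.10) narrowly missed the threshold (edgeR adjusted p = 0.052). Emc6, the EMC gene of highest level per length at 49.2 CPM per kb in WT, had a value of -0.14. Emc1 stood at 23.3 ± 1.92 and 27.6 ± 2.70 CPM (log2 fold change 0.25, edgeR adjusted p = 0.10), but 30.9% of its exonic bases are shared with other genes.

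Of 16 genes of the COPII coat and ER exit sites, 1 fell and none rose. Tfg, which organises exit sites and the space towards the Golgi (chromosome 16, 56690332 to 56717450), lay at 40.7, 41.7 and 44.7 CPM in WT and 35.3, 36.0 and 38.6 CPM in KO. Both groups were narrow and did not meet. At -0.21 on the log2 scale (SE 0.05, edgeR adjusted p = 0.042) it was the smallest of the 11 falls, and with the range of the library numbers in the model it missed the threshold (-0.19, edgeR adjusted p = 0.057). Preb, the exchange factor that loads SAR1 with GTP, had a value of -0.18 (edgeR adjusted p = 0.17).

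The coat's paralogues differed in level and in spread. Sar1b, the form tied in people to chylomicron retention disease, had 114 CPM per kb in WT, the highest of all 97 members, and Sar1a had 29.9 CPM per kb. Neither passed the test, with log2 fold changes of 0.03 for Sar1b and 0.08 for Sar1a. Of the inner coat's cargo adaptors, Sec24c was the most abundant per length at 25.3 CPM per kb in WT, followed by Sec24d at 9.57, Sec24a at 7.38 and Sec24b at 3.47. Sec24d lay at 43.2, 64.3 and 78.1 CPM in WT and 32.1, 42.4 and 60.2 CPM in KO, and its value of -0.46 (SE 0.19, edgeR adjusted p = 0.18) was within a wide spread. Sec24a, Sec24b and Sec24c had values of 0.16, 0.06 and 0.03. Sec23a stood at 80.1 ± 18.6 and 62.1 ± 17.3 CPM (log2 fold change -0.37, edgeR adjusted p = 0.28) and Sec23b at 27.6 ± 2.55 and 26.2 ± 4.41 CPM. Sar1b and Sec24a lie head to head on chromosome 11 with 53 bases between their ends.

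**Figure D3:**
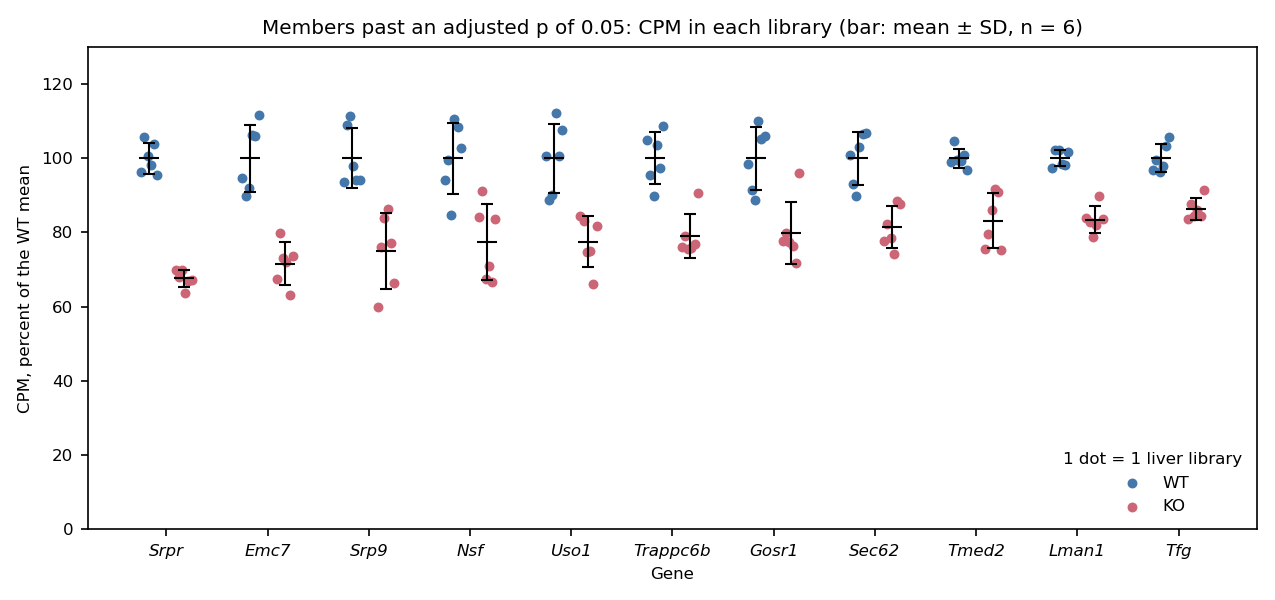
Level of each of the 11 members that fell, as percent of its WT mean (vertical axis, from 0), with 1 dot per library, blue for WT and red for KO, and black bars for mean ± SD of 6 libraries. KO means run from 67.6% for Srpr to 86.3% for Tfg, and single KO libraries reach into the WT range for Nsf, Trappc6b and Gosr1.

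Of 12 cargo receptors and p24 proteins, 2 fell and none rose. Lman1, a lectin that carries glycoproteins such as coagulation factors V and VIII out of the ER, is on chromosome 18 and lay at 163, 168 and 172 CPM in WT and 132, 140 and 151 CPM in KO. The WT libraries were tightly grouped (log2 SD 0.03) and all stood above every KO library. Lman1 fell by 0.26 on the log2 scale (SE 0.06, edgeR adjusted p = 0.029). Mcfd2, the calcium-binding partner of Lman1, was the most abundant of the 12 per length at 90.9 CPM per kb in WT and stood at 237.5 ± 13.99 CPM in WT and 232.9 ± 22.2 in KO. Tmed2, a p24 protein of coated vesicles (chromosome 5, 124540695 to 124550506), lay at 76.1, 78.1 and 82.2 CPM in WT and 59.1, 65.1 and 72.2 CPM in KO. Its groups were apart too, with more spread in KO, and it fell by 0.27 (SE 0.07, edgeR adjusted p = 0.042). Its partner Tmed10 had a value of -0.17 (edgeR adjusted p = 0.31).

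In the largest role, tethering and fusion, 4 of 21 genes fell, none rose and 17 had fitted values below 0. Of all tested genes weighted to the levels of the 97 members, 3.23% fell and 59.2% had a fitted value below 0. Averaged over the 21 genes, the level was 4.56 to 4.60 log2 CPM in WT and 4.40 to 4.48 log2 CPM in KO, so the groups did not overlap. The mean over all 97 members was apart too, at 5.49 to 5.57 log2 CPM in WT and 5.37 to 5.48 in KO. Uso1 (chromosome 5, 92137938 to 92202798) encodes p115, the coiled-coil tether of ER-derived vesicles, and lay at 85.5, 96.9 and 108 CPM in WT and 63.6, 75.5 and 81.2 CPM in KO. No KO library reached the lowest WT library, and the log2 fold change was -0.37 (SE 0.08, edgeR adjusted p = 0.024). Trappc6b (chromosome 12, 59043093 to 59061461), a core subunit of the TRAPP tethers, lay at 24.7, 27.7 and 30.0 CPM in WT and 20.8, 21.1 and 25.0 CPM in KO. Of the KO libraries KO 780 alone reached the WT range, just above WT 601, and the log2 fold change was -0.34 (SE 0.07, edgeR adjusted p = 0.017).

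Of the fusion factors, Gosr1 and Nsf fell, while the SNARE genes Gosr2, Sec22a and Sec22b had values of 0.06, -0.03 and 0.09 and did not pass. Gosr1 (chromosome 11, 76726602 to 76763579), a Golgi SNARE, lay at 34.8, 39.9 and 43.1 CPM in WT and 28.2, 30.4 and 37.6 CPM in KO. KO 780 stood above WT 590 and WT 601, while the other 5 KO libraries were below all of WT (log2 fold change -0.33, SE 0.08, edgeR adjusted p = 0.042). Nsf (chromosome 11, 103821782 to 103954056), the ATPase that takes spent SNARE complexes apart, lay at 14.5, 17.3 and 18.9 CPM in WT and 11.4, 13.3 and 15.6 CPM in KO. Here KO 584 was above WT 601, the log2 fold change was -0.37 (SE 0.10) and the edgeR adjusted p of 0.049 was at the edge of the threshold. With the range of the library numbers in the model Nsf missed it (-0.31, edgeR adjusted p = 0.077). Trappc2, the member of lowest mean level, had every KO library below every WT library (3.61 to 4.35 CPM in WT, 2.83 to 3.43 CPM in KO) but missed the threshold (log2 fold change -0.36, edgeR adjusted p = 0.068). Trappc1, the tether of highest level per length at 27.3 CPM per kb in WT, had a value of -0.27 (edgeR adjusted p = 0.12).

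For the return path, 0 of 11 genes of the COPI coat and KDEL retrieval were called by edgeR, DESeq2 or limma-voom. Fitted values were below 0 for 9, and 2, Copb1 and Copz2, reached an unadjusted p under 0.05. Of all 13706 tested genes, 2903 reached that p in either direction. Copb1 stood at 95.8 ± 16.4 CPM in WT and 77.3 ± 12.5 in KO (log2 fold change -0.31, SE 0.13, edgeR adjusted p = 0.19) and Copz2 at 21.8 ± 4.77 and 17.3 ± 2.78 CPM (log2 fold change -0.33, SE 0.14, edgeR adjusted p = 0.19). Copz1 had the highest level per length of the 11, 96.6 CPM per kb in WT, and a value of -0.07. Kdelr1 and Kdelr2, receptors that return ER residents by their tail signal, stood at 52.4 and 36.3 CPM per kb in WT. Kdelr1 had a value of -0.06 and Kdelr2 one of 0.16, neither past the test.

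Neighbouring pathway lists were read for comparison. Of 5 tested genes of tail-anchored protein insertion, 17 partners of ER exit and 34 further SNAREs, GTPases and Golgi tethers, 0 were called by edgeR. Fitted values were below 0 for all 5 genes of the first list, 14 of the 17 in the second and 20 of the 34 in the last. Of all tested genes weighted to the members' levels, 59.2% had a fitted value below 0, and the share of the last list was close to that. Median log2 fold changes of these lists were -0.14, -0.14 and -0.05, against -0.07 for the members. The median of all tested genes was -0.03 at 4 to 6 log2 CPM and -0.07 at 6 to 8, so the last list showed no lean beyond them. Averaged over the 17 ER exit partners, the level was 5.39 to 5.45 log2 CPM in WT and 5.27 to 5.34 in KO, without overlap. At an unadjusted p under 0.05 these lists held 2, 4 and 6 lower and 0, 0 and 3 higher genes. Of all 13706 tested genes, 2903 reached that p in either direction. DESeq2 called 0, 3 and 0 lower and 0, 0 and 2 higher, and limma-voom 0, 1 and 0 lower and none higher. Of 24 ER chaperones and regulators of the unfolded protein response, which expand the ER's folding capacity, 3 fell and none rose, with a median log2 fold change of -0.27. Hspa5, the chaperone BiP that gates SEC61 from the lumen, fell from 709.5 ± 92.2 to 497.0 ± 62.8 CPM (log2 fold change -0.51, edgeR adjusted p = 0.029), Hyou1 by 0.59 (adjusted p = 0.014) and Dnajc3 by 0.41 (adjusted p = 0.043). Xbp1, a transcription factor that drives many secretory pathway genes, stood at 198.5 ± 13.7 CPM in WT and 226.2 ± 75.2 in KO (edgeR adjusted p = 0.57).

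Members that form a pair, by paralogy or by binding each other, were compared by the log2 ratio of their levels within each library, where the scaling of the library cancels apart from the prior count. The 18 pairs were set down after the members' values were known, and p-values were adjusted over the 18. The log2 ratio of Srpr to Srprb ran from 3.99 to 4.36 over WT libraries and from 3.05 to 3.90 over KO libraries. Its groups did not overlap, and it was lower by 0.72 in KO (95% interval of the change -0.98 to -0.45, exact permutation p = 0.00216, adjusted p = 0.039). Srpr was already known to have the largest fall of the members, so this ratio is not a separate test of that fall. The ratio of Kdelr1 to Kdelr2 ran from 0.41 to 0.70 in WT and from 0.27 to 0.45 in KO, a change of -0.22 (interval -0.34 to -0.10, exact permutation p = 0.00433, adjusted p = 0.039). Leaving out 1 library at a time, these changes ran from -0.81 to -0.64 and from -0.25 to -0.20. Kdelr2 rose with the acute phase level described below (slope 0.08, edgeR adjusted p = 0.024). Kdelr1 had a slope of 0.05 on it (edgeR adjusted p = 0.26). Whether that level bears on the ratio of Kdelr1 to Kdelr2 was not tested.

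The other 16 pairs did not pass, and several leave room for sizeable changes. Gosr1 against Gosr2 changed by -0.38 (interval -0.63 to -0.13), Lman1 against Mcfd2 by -0.23 (-0.40 to -0.06) and Sec11a against Sec11c by 0.33 (0.07 to 0.60), each with an exact permutation p adjusted to 0.062. For Stt3a against Stt3b the change was -0.01 with an interval of -0.26 to 0.24, and for Copg1 against Copg2 -0.02 with an interval of -0.20 to 0.16.

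**Figure D4:**
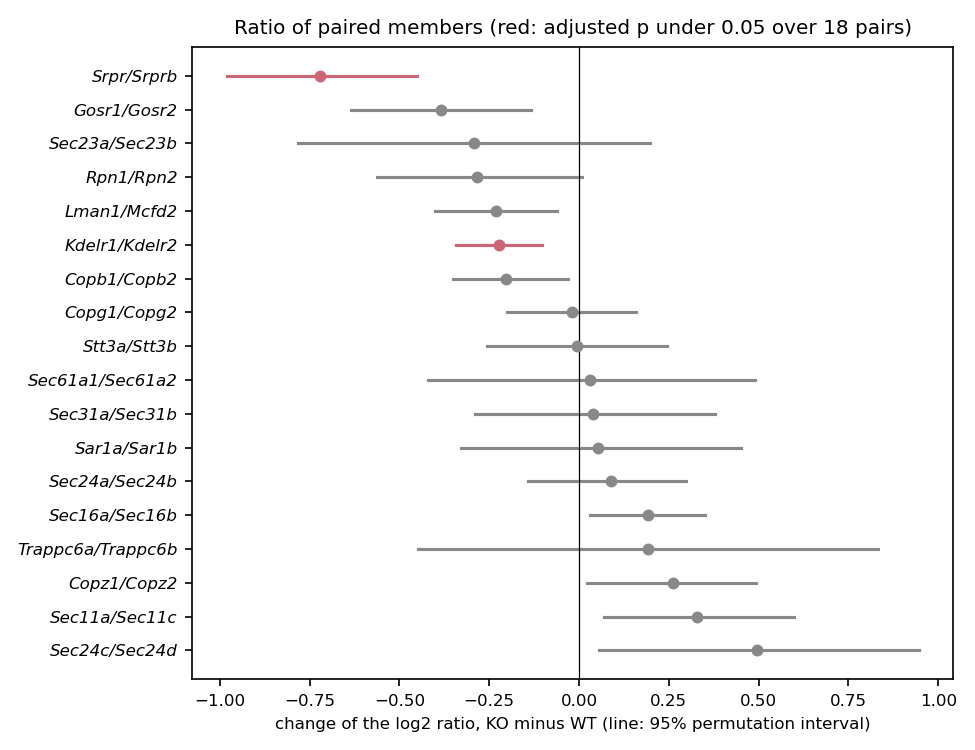
Change of the log2 ratio of paired members between genotypes (horizontal axis, KO minus WT), with points for the change and lines for the 95% interval from the exact permutation test on 6 against 6 libraries. The red pairs, Srpr/Srprb at -0.72 and Kdelr1/Kdelr2 at -0.22, passed an adjusted p of 0.05 over 18 pairs.

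The libraries also differed within each genotype by their level of acute phase genes, the plasma proteins hepatocytes make in inflammation. The mean of 22 such genes ran from 6.63 (WT 778) to 9.72 log2 CPM (WT 590) in WT and from 6.89 (KO 780) to 10.51 log2 CPM (KO 602) in KO, and 0 of the 22 differed by genotype in edgeR, DESeq2 or limma-voom, with 1 lower and 0 higher at an unadjusted p under 0.05. Fitted values were nonetheless above 0 in KO for 19 of the 22, with a median log2 fold change of 0.30. The level was 7.72 ± 1.42 log2 CPM in WT and 8.12 ± 1.36 in KO, with medians of 6.99 and 7.75. Each gene was therefore also fitted on this level with genotype in the model, an analysis chosen after seeing the data. With rising acute phase level 20 members rose and 4 fell, where 5.84% of all tested genes rose and 3.61% fell; the share of members that fell was close to that background. The roles differed: 4 of 5 oligosaccharyltransferase genes, 6 of 10 channel genes and 4 of 5 signal peptidase genes rose, against 2 of 12 cargo receptors and p24 proteins, 2 of 11 COPI and retrieval genes, 1 of 9 EMC genes, 1 of 21 tethers and 0 of the SRP and COPII genes. Genes outside the members moved too. Of the enzymes' partners listed above, Dad1, Ostc, Krtcap2, Tram1 and Sil1 rose (slopes 0.12 to 0.21) and Ccdc47 fell (-0.11). Of the ER chaperones and regulators, Calr, Canx, P4hb, Pdia3, Pdia4, Pdia6, Dnajb11, Dnajc3, Sdf2l1, Ddit3, Manf and Creld2 rose (slopes 0.09 to 0.67). Atf6, Creb3, Creb3l3 and Atf4 had slopes below 0 and did not pass.

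Sec61g, a small subunit of the channel, had the steepest slope of the members, 0.31 log2 units per log2 unit of the acute phase level (SE 0.04, edgeR adjusted p = 0.00019). In WT it was highest in WT 590 and WT 601 (41.7 and 33.0 CPM) and lowest in WT 776 (19.2 CPM), and in KO highest in KO 602 (56.2 CPM) and lowest in KO 780 (21.3 CPM). Ddost, a scaffold subunit of the oligosaccharyltransferase, was likewise highest in WT 590 and KO 602, with 90.0 CPM in WT 590 and 51.4 in WT 777, and 100.3 CPM in KO 602 and 50.1 in KO 780 (slope 0.25, SE 0.03, edgeR adjusted p = 0.00018). Ssr4, Sec61b and Rpn2 had slopes of 0.26, 0.29 and 0.21. Srpr, by contrast, had a slope of 0.01 (edgeR adjusted p = 0.79), with 210 CPM in WT 590 and 133 CPM in KO 602.

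The 4 members that fell with the acute phase level were Sec24d (slope -0.21), Sec23a (-0.19), Copb1 (-0.15) and Uso1 (-0.09). Sec24d ran from 43.2 CPM (WT 590) to 78.1 (WT 776) in WT and from 32.1 CPM (KO 591) to 60.2 (KO 780) in KO, with 36.1 CPM in KO 602. Without KO 602 and WT 590, the libraries farthest above the median acute phase level, 10 members rose and 3 fell, where 2.34% of all tested genes rose and 1.61% fell. With the range of the library numbers also in the model 8 members rose and 1 fell, against 2.90% and 1.61% of all tested genes. Leaving out KO 602 alone gave 11 rising and 4 falling members (3.33% and 1.87% of all tested genes), and leaving out WT 601 alone 13 and 2 (3.05% and 1.32%).

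**Figure D5:**
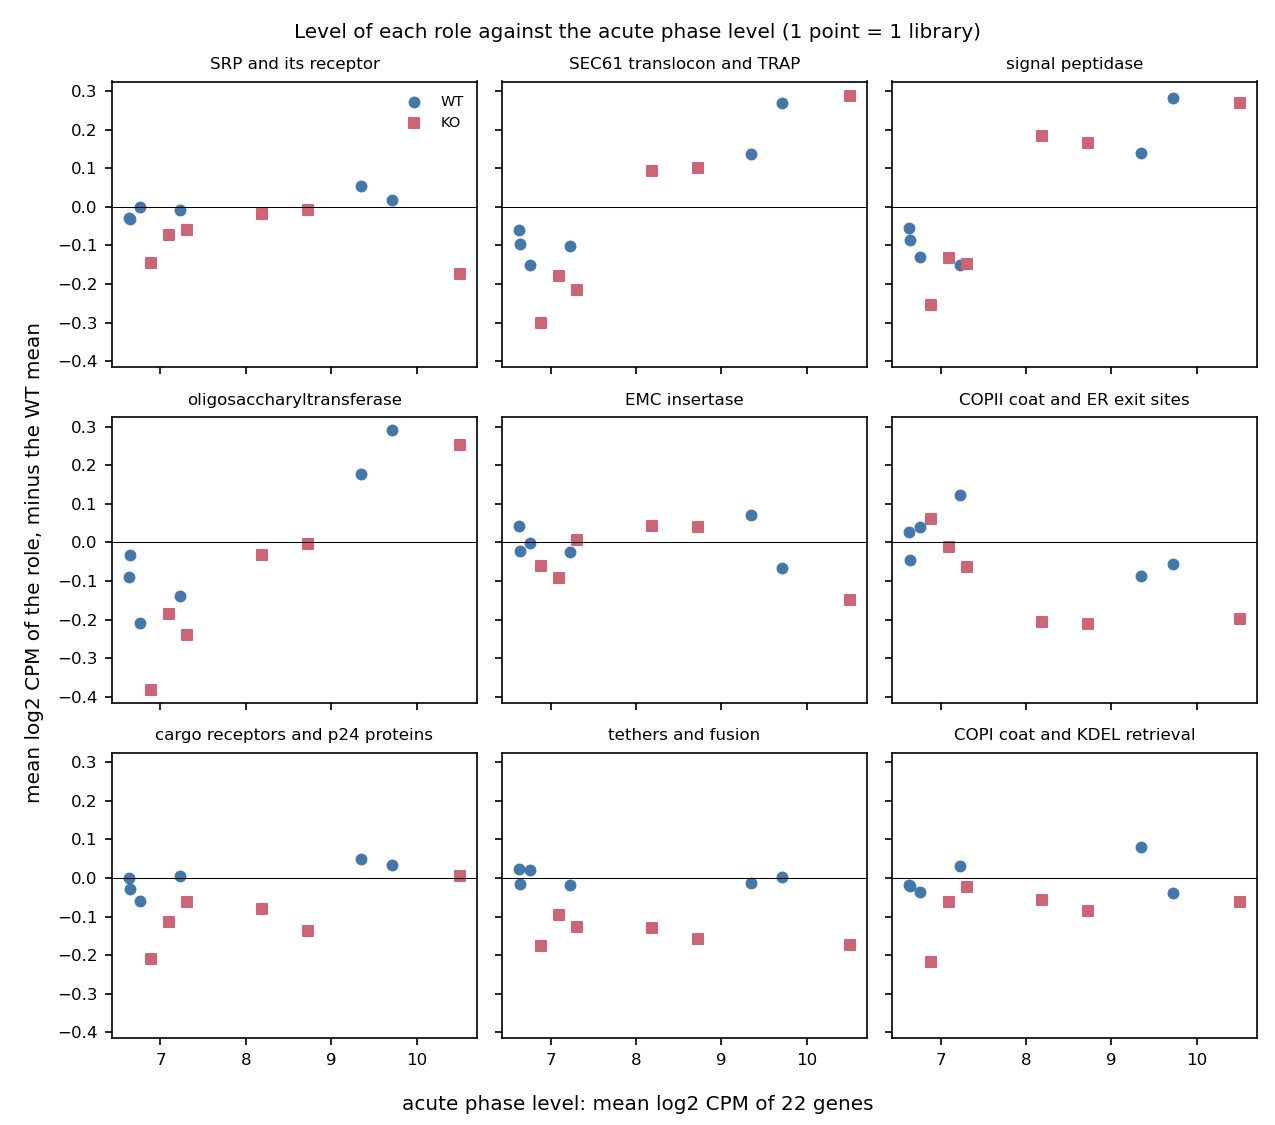
Mean log2 CPM of the members of each role minus its WT mean (vertical axis) against the acute phase level, the mean log2 CPM of 22 acute phase genes (horizontal axis), with 1 point per library, circles for WT and squares for KO. The channel, signal peptidase and oligosaccharyltransferase panels climb from left to right in both genotypes, while in the panel of tethers every KO square lies below every WT circle.

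Promoter windows (250 bases before to 50 after the start, RefSeq, GRCm38.p6) were searched on both strands for 3 motifs tied to the unfolded protein response, since several members moved together across libraries. A promoter was at hand for 80 of the 97 members, with 87 windows. The ER stress response element was in 0 member windows and in 0.119% of all 32851, and the ER stress response element II in 0 and 0.0365%. The XBP1 core TGACGTGG was in 5.75% of member windows and 0.676% of all windows (0.998% of those of tested genes). Its complement CCACGTCA shares the letters CCACG with both of the others, so the searches overlap. It stood in 5 members of the vesicle coats and exit sites. They are shown here because 3 of them, Copb1, Sec23a and Sec24d, are among the 4 that fell with the acute phase level. The share of members that fell with that level was close to the 3.61% of all tested genes. A link between the motif and those falls was not tested. Xbp1 itself had a slope of 0.08 on that level (edgeR adjusted p = 0.42). Of the ER chaperone list, Sdf2l1, Pdia6 and Calr rose with it (slopes 0.67, 0.34 and 0.29), and Atf6 had a slope of -0.05 without passing. The capitals mark the motif or its complement, and each line is read 5′ to 3′ on the gene's strand.
Copb1 (chr7:114254681-114254728, minus strand): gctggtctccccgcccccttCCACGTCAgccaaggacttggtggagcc
Copb2 (chr9:98563714-98563741, plus strand): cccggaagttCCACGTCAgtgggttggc
Sec16b (chr1:157506732-157506779, plus strand): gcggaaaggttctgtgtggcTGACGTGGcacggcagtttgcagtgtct
Sec23a (chr12:59011994-59012021, minus strand): tcctccccttTGACGTGGcagaggcggc
Sec24d (chr3:123267450-123267495, plus strand): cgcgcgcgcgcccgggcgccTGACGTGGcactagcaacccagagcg

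The motif ends 20 bases before the annotated start in Copb1, 36 in Sec16b and 18 in Sec24d, spans the start in Copb2 and lies after it in Sec23a. Copb2 and Sec16b had slopes of -0.09 and -0.06 on the acute phase level and did not pass the test (edgeR adjusted p = 0.0502 and 0.31). None of the 11 members that fell in KO holds one of these motifs in its window, where a window was at hand. Only 5 of the 80 members with a window hold any of them, so 0 among at most 11 cannot be told from that share.

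The 11 falls differed in how far they depended on single libraries. Srpr, Emc7, Srp9 and Trappc6b passed in all 12 fits that left out 1 library, Uso1 in 7, Lman1 in 6, Sec62 in 4, Gosr1 in 3, and Nsf, Tfg and Tmed2 in 2. Members that fell numbered 4 (4.1%) without any 1 of WT 573, WT 777, WT 778 or KO 588. They numbered 5 (5.2%) without KO 574 or KO 591, 6 (6.2%) without WT 776 and 7 (7.2%) without KO 584. Calls over all tested genes, in either direction, were 1.92% to 2.31% in the fits with 4, and 2.28% and 2.35% in those with 5. Such calls were 3.14% without WT 776 and 3.94% without KO 584, against 3.82% with all libraries. All 11 kept a negative value in each of these fits and in the 11 other settings tried, but only Srpr passed in every setting. With the mean level of the 32 Kupffer, endothelial and stellate markers in the model, which was 3.40 to 4.13 log2 CPM in WT and 3.79 to 4.58 in KO, Srpr alone of the members passed, and 69 of all tested genes did. The fitted falls in that model were -0.54 for Srpr, -0.49 for Srp9, -0.43 for Emc7, -0.33 for Trappc6b, -0.32 for Tmed2 and Uso1, -0.29 for Lman1, Sec62 and Gosr1, -0.24 for Nsf and -0.20 for Tfg, and the median over all members was -0.10. Within the libraries numbered 573 to 602 (3 WT and 5 KO) Srpr was again the only member to pass, of 57 genes in all, and the fitted falls of the other 10 ran from -0.44 for Srp9 to -0.19 for Tfg. By difference of group means Srpr was lower by -0.57 in that number range and by -0.56 in the range 776 to 780, which holds 3 WT and 1 KO library. How far other cell types take part in the smaller falls was not tested beyond this. With libraries scaled by their totals alone, 3 members fell and 1, Emc9, rose, and calls over all genes split into 139 lower and 266 higher in place of 287 and 236.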

How the data were processed

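Liver RNA was extracted with a miRNeasy kit and made into libraries with a TruSeq RNA kit, per the labels' protocols. The deposited table holds the authors' raw counts, fragments assigned to exons of GENCODE M8 by featureCounts 1.5.0-p2 and summed by gene name, per the file headers. The command sets no option for strand or multiply mapped reads. By default reads over several genes are left uncounted, and 11 members share more than 10% of their exonic bases with another gene. STAR, DESeq2 and the mm10 build are named in the submitters' processing notes. The deposited exonic length per gene, another value in that table, gave levels per kb.

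Counts were tested in R 4.3.3 with edgeR 4.0.16 (filterByExpr with a minimum count of 10, TMM, robust glmQLFit and glmQLFTest), all 12 libraries, genotype as the only term, Benjamini-Hochberg adjustment over 13706 genes and a threshold of 0.05. CPM are TMM-scaled, and log2 CPM use a prior count of 2. Standard errors are the absolute log2 fold change over the square root of F. Exact permutation tests ran over 924 assignments, and intervals of a change hold the shifts not refused at the 95% level. Replicates were compared first: all pairs within a group differed by more than sampling noise (chi-square over its degrees of freedom, 16.6 to 301). Tools run as alternatives were DESeq2 1.42.0 and limma 3.58.1. The steps were tested on simulated data of 6 against 6 libraries. There, 38% of the genes changed 1.5-fold and 72% of those changed 2-fold passed, and 3.87% of calls were false. The changed genes were drawn from all tested genes, whose median level was 3.59 log2 CPM against 5.75 for the members. Recovery at the members' levels was not measured. No member differed by more than 0.58 on the log2 scale, and changes below 1.5-fold were not simulated. A member that did not pass therefore cannot be taken as equal between genotypes.

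Members, role lists and other lists were chosen with earlier results of these data known. Described singly were members past the threshold, in each role with fewer than 2 of these the ones of smallest p up to 2, the member of highest WT level per kb in each role, the paralogues of Sar1, Sec23, Sec24 and the KDEL receptors, Lman1, Mcfd2 and Sec61a1, and up to 4 genes past the threshold from each other list. Other members named here, such as subunit partners and members with a slope, were chosen after their values were seen. Promoter sequences came from RefSeq (GRCm38.p6), matched by symbol, and 17 members had no entry.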

Additional observations from a re-analysis of the deposited data

Results flagged for a closer look

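In 7 of 76 sets of 6 libraries (38 named members in 2 genotypes) 1 library lay far from the other 5, by Dixon's ratio above 0.625, which chance gives in about 1 of 20 sets. In KO 780, which had the lowest mean member level (5.37 log2 CPM), Copz1 was low at 118 CPM (other KO libraries 153 to 167 CPM), while Gosr1 was high at 37.6 CPM (28.2 to 31.2), Sec24b at 28.6 CPM (19.1 to 22.1) and Trappc6b at 25.0 CPM (20.8 to 21.8). Without KO 780 both Gosr1 and Trappc6b still passed the test of KO against WT. In KO 602, which had the highest acute phase level, Sec23b was low at 17.8 CPM (25.8 to 30.2). In WT, Copz2 was high at 31.3 CPM in WT 601 (18.7 to 21.7) and Emc6 low at 60.1 CPM in WT 590 (69.8 to 74.1).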

How the results depend on the processing

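The count of members that fell, 11, became 3 with library totals only, 5 with no low-count filter, 1 within the libraries numbered 573 to 602, 3 without the 2 deepest libraries (WT 573 and KO 588) and 1 with the nonparenchymal marker level as a covariate; members called in all were 4, 5, 1, 3 and 1. With the acute phase level as a covariate 17 members were called. The count of members that rose, 0, became 1 (Emc9) with library totals only, a mean of at least 1 CPM, DESeq2, limma-voom and the acute phase covariate. The members' median log2 fold change moved to -0.0181 with library totals only, where the median of all genes was 0.06. Calls over all genes, 523, were 405 with library totals only, 430 of 26090 with no low-count filter and 1172 with DESeq2. They were 57 within the libraries numbered 573 to 602, 206 without the 2 deepest, 925 with the acute phase and 69 with the nonparenchymal covariate. Leaving out 1 library at a time gave 4 to 10 members lower, 0 to 1 higher, 4 to 11 called in all, 266 to 638 genes and a median of -0.07 to -0.06; on the acute phase level 11 to 20 members rose and 2 to 5 fell, and these became 10 without KO 602 and WT 590, and 8 and 1 with the number range as a second covariate. Small values turned sign: Mcfd2 to 0.0218 with library totals only and 0.0344 within 573 to 602, Rpn2 to 0.0130 with library totals only, Sec61a1 to -0.12 with the number range as a covariate, -0.11 within 573 to 602, -0.0140 without the 2 deepest, -0.0427 with the acute phase and -0.19 with the nonparenchymal covariate, and under the last Sar1b to -0.0134 and Sec11a to -0.0282. Leaving out 1 library, the ranges that crossed 0 were Rpn2 -0.14 to 0.0527, Sar1b -0.0183 to 0.10, Copz1 -0.11 to 0.0014, Sec61a1 -0.0455 to 0.12, Sec24c -0.0023 to 0.0606, Mcfd2 -0.0651 to 0.0010, Sec23b -0.12 to 0.0213 and Sec24b -0.0333 to 0.10. Fewer libraries or genes entered some of these fits; otherwise the cause was not tested. The covariates of acute phase and nonparenchymal level were chosen after seeing the data. No paired analysis was possible because the groups share no library number.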

Other observations

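Members differed in how evenly they were expressed among WT livers. Srp19 (log2 SD 0.02), Lman1 (0.03) and Tmed2 (0.04) varied least, while Tmed5, Sec61g and Tmed3 (0.42 each), Sec61b (0.39) and Ddost (0.37) varied most. Per length, the most abundant members in WT were Sar1b, Copz1, Mcfd2, Srpr and Kdelr1 at 114, 96.6, 90.9, 59.0 and 52.4 CPM per kb, and the least abundant Tmed8, Sec61a2 and Srp54b at 0.566, 0.859 and 0.954 CPM per kb. Together the members took 0.591% to 0.661% of all counts in a library.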
